A study of Mus musculus with 16 samples.

Results

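The genes described here are 10 mouse genes that code for secreted signals of the intestinal stem cell niche and for a transcription factor of the stromal cells that make such signals. They are the R-spondins Rspo1 and Rspo3, the Wnt ligands Wnt2b, Wnt4 and Wnt5a, the bone morphogenetic protein (BMP) ligands Bmp2, Bmp4 and Bmp7, the BMP antagonist Grem1 (gremlin 1), and Foxl1. They were chosen by symbol, and all 10 were found among the 39328 genes of the table. RNA was sequenced from the colons of adult wild-type ICR mice, an outbred stock. Group DSS_CS was born by cesarean section and drank 3% dextran sulfate sodium (DSS), a polysaccharide toxic to the colon epithelium, over 8 days. Group DSS_VD was born vaginally and drank the same DSS water, group CON_CS was born by cesarean section and drank normal water, and group CON_VD was born vaginally and drank normal water. Each group has 4 libraries, 16 in all, and values are FPKM, fragments counted per gene length and per sequencing depth. By its title, the study concerns how cesarean birth bears on susceptibility to colitis.

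Wnt ligands bind Frizzled receptors on epithelial cells at the crypt base and keep stem cells dividing, and R-spondins amplify that signal by binding Lgr receptors and removing the ubiquitin ligases that clear Frizzled from the surface. BMP ligands act in the opposite sense and favour differentiation towards the lumen, and gremlin 1 binds BMP2, BMP4 and BMP7 and keeps them from their receptors. In the colon most of these signals come from fibroblasts, smooth muscle and subepithelial telocytes around the crypts. Foxl1 is a forkhead transcription factor used as a marker of those telocytes. In whole colon tissue fewer cells of a type and less RNA per cell cannot be told apart, and which cells held each transcript was not measured.

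The promoters of Grem1, Bmp4 and Rspo1 are shown because these genes were among those that differed between DSS_CS and DSS_VD colons and had a RefSeq promoter entry. An entry was found for 5 of the 10 genes, the others of the 5 being Wnt2b and Wnt4. Each sequence holds the 250 bases before the RefSeq start on GRCm38.p6, read 5′ to 3′ on the gene's strand. Grem1 lies at chr2:113758649-113758898 on the minus strand, Bmp4 at chr14:46390670-46390919 on the minus strand, and Rspo1 at chr4:124986180-124986429 on the plus strand. Capitals mark GGGCGG, the core of the GC box, searched on both strands.
Grem1: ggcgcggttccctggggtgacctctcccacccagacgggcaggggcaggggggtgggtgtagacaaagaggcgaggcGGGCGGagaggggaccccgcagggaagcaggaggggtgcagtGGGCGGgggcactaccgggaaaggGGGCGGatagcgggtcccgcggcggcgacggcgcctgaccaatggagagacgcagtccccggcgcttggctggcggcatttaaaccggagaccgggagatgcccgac
Bmp4: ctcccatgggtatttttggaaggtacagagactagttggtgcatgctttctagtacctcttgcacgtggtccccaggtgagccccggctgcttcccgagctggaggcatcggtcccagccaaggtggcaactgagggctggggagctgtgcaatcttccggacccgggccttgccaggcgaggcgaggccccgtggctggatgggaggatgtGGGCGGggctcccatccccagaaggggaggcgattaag
Rspo1: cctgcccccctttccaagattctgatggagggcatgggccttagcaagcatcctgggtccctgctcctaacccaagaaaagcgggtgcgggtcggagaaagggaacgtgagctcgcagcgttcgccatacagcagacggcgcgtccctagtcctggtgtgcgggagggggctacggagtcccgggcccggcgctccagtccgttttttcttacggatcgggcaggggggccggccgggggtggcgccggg
The Grem1 window held 3 copies of GGGCGG and the Bmp4 window 1, and 32.7% of 32817 windows of the same length hold the motif. The other motifs searched on both strands were TATAAA (the TATA box), TGANTCA (AP-1), CTTTGAT (TCF/LEF), TTCNNNGAA (STAT), TGTTTAC (forkhead) and GACCACCCA (GLI), which occur in 12.4%, 6.75%, 3.21%, 7.01%, 3.16% and 0.225% of the windows, and none of these letters were in the 5 windows found. GC content was 72% for Grem1, 63.2% for Bmp4 and 66.8% for Rspo1, above the median window at 52.4%.

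Several features of the libraries bear on the values below. Pearson correlations of log2(FPKM + 1) within a group ranged from 0.969 to 0.989. The summed FPKM of 12 fibroblast markers was 1372 to 1812 in DSS_CS, 520 to 1087 in DSS_VD, 290 to 328 in CON_CS and 253 to 280 in CON_VD colons, and no marker was under 2.39 FPKM in any library. The sum of 10 epithelial markers was 796 to 2392 in DSS_CS, 2268 to 4825 in DSS_VD, 5102 to 5357 in CON_CS and 4416 to 5228 in CON_VD colons. DSS_VD replicate 2 stood apart from the other DSS_VD colons, with the fewest fibroblast marker FPKM (520) and the most epithelial marker FPKM (4825). DSS_CS replicate 4, DSS_CS replicate 3 and CON_CS replicate 1 held Pbsn, a prostate secretory protein, at 1355, 128 and 185 FPKM.

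On normal water, Bmp2 had the highest level of the 10 genes per unit of length, followed by Grem1, Bmp4 and Rspo3. Bmp2, a BMP ligand of the differentiated crypt top, had 20.1, 19.0, 36.0 and 25.0 FPKM in CON_CS colons and 23.4, 21.2, 23.2 and 16.3 FPKM in CON_VD colons. Grem1 averaged 13.4 ± 1.65 FPKM in CON_CS and 10.4 ± 3.23 FPKM in CON_VD colons (SD, n = 4 each). Bmp4 averaged 8.59 ± 0.81 FPKM in CON_CS and 5.87 ± 0.95 FPKM in CON_VD colons, and Rspo3 averaged 2.43 ± 0.28 and 2.18 ± 0.42 FPKM in CON_CS and CON_VD colons. Among these 4 genes, neighbours in the order did not overlap within either water group. The 3 Wnt genes, Bmp7 and Foxl1 followed between 0.73 and 2.79 FPKM, with overlapping ranges between neighbours in the order. Rspo1 was lowest, at 0.07, 0.07 and 0.10 FPKM in CON_CS replicates 1, 2 and 4, listed at 0 in CON_CS replicate 3, and at 0.06 to 0.13 FPKM in CON_VD colons.

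DSS changed that order. Grem1 was the highest of the 10 in both DSS groups, and its range was apart from that of Bmp4, the next in the order, in DSS_CS and in DSS_VD colons. In DSS_CS colons Bmp4 (32.1 to 62.4 FPKM) was also apart from Rspo3 (10.2 to 24.6 FPKM), which overlapped Bmp2 (11.7 to 18.5 FPKM). In DSS_VD colons Bmp4 (10.3 to 28.9 FPKM) overlapped Bmp2 (10.7 to 27.5 FPKM), and Bmp2 was apart from Rspo3 (4.98 to 8.49 FPKM).

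**Figure D1:**
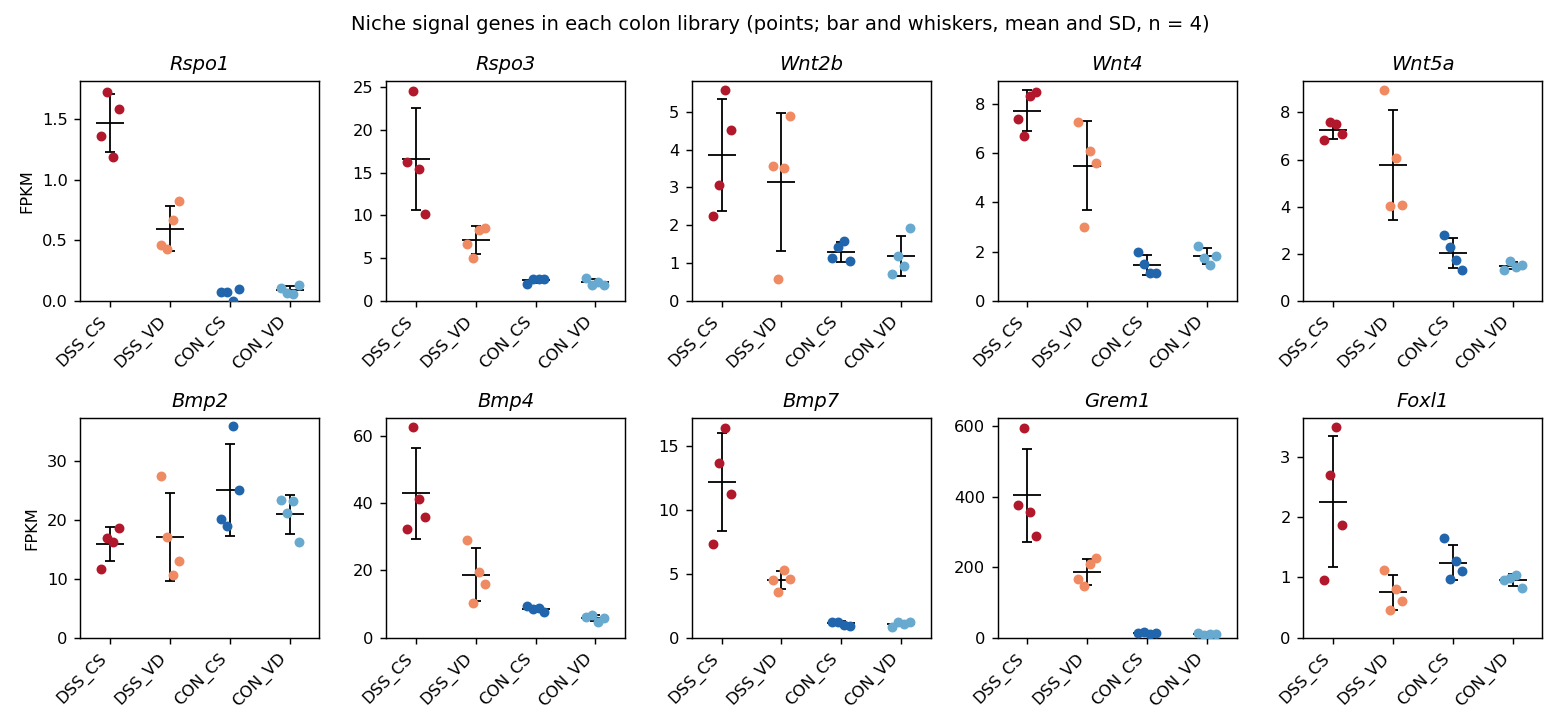
FPKM of the 10 genes (vertical axes, each from 0) in each of the 16 colon libraries, grouped on the horizontal axis as DSS_CS, DSS_VD, CON_CS and CON_VD. Points are libraries and black bars with whiskers are the mean and SD of 4 libraries, left out for Rspo1 in CON_CS, where 1 library is listed at 0. Grem1 lay between 148 and 595 FPKM in the DSS groups, against 6.98 to 15.1 FPKM on water, while Bmp2 lay between 10.7 and 27.5 FPKM with DSS and between 16.3 and 36.0 FPKM on water.

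The first comparison asks how the colon of each birth group differed after DSS. In colons of cesarean-born mice, 8 of the 10 genes were higher and 1 was lower with DSS. Over all 14372 genes tested, 60.3% were called in either direction, with 34.4% higher and 25.9% lower. Rspo1 reached 1 FPKM only in DSS_CS colons and so passed the filter only through them, which leaves 7 of the other 9 genes higher. In colons of vaginally born mice, 6 genes were higher among the 8 tested, against 40.9% of 13933 genes called in either direction, 24% higher and 17% lower. Leaving out Rspo1, the 4 DSS values were all above the 4 water values for 7 of the other 9 genes for DSS_CS over CON_CS. For DSS_VD over CON_VD, where Rspo1 was below the filter, they were so for 6 of the 8 tested. Over all genes tested the shares were 32.9% and 22.2%. Calls here are limma adjusted p-values under 0.05 (Benjamini-Hochberg over all genes tested). The median log2 fold change was 1.65 over the 10 genes and 0.06 over all genes tested for DSS_CS over CON_CS, and 1.36 over the 8 and 0.06 over all for DSS_VD over CON_VD. Where libraries were scaled by medians of ratios, the split over all genes became 4157 higher and 4600 lower in place of 4937 and 3729 for DSS_CS over CON_CS, and 2937 and 3024 in place of 3340 and 2364 for DSS_VD over CON_VD, while the count of the 10 genes called did not change. That scaling moved the median of all genes for DSS_CS over CON_CS to -0.05.

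Both R-spondins were higher with DSS. Rspo3, the more abundant R-spondin here and a ligand of Lgr4 and Lgr5, had 16.2, 24.6, 15.5 and 10.2 FPKM in DSS_CS colons against 2.02, 2.58, 2.53 and 2.61 FPKM in CON_CS colons. It had 6.62, 4.98, 8.32 and 8.49 FPKM in DSS_VD colons against 2.73, 1.87, 2.26 and 1.85 FPKM in CON_VD colons. Every DSS library was above every water library of the same birth mode. The ratio of means was 6.83 for DSS_CS over CON_CS (log2 fold change 2.30 ± 0.22 SE, limma adjusted p = 2.61e-05) and 3.26 for DSS_VD over CON_VD (1.34 ± 0.17, limma adjusted p = 0.000304).

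Rspo1 had 1.36, 1.73, 1.19 and 1.59 FPKM in DSS_CS colons, against 0.07, 0.07, 0 as listed and 0.10 FPKM in CON_CS colons. It had 0.46, 0.43, 0.67 and 0.82 FPKM in DSS_VD colons against 0.11, 0.07, 0.06 and 0.13 FPKM in CON_VD colons. The ranges were apart in both birth groups, and no library outside DSS_CS reached 1 FPKM. Rspo1 thus entered the DSS_CS over CON_CS fit only through the group in which it was high, where limma gave a log2 fold change of 1.21 ± 0.10 (adjusted p = 9.17e-06). It was below the filter for DSS_VD over CON_VD; with no filter its log2 fold change there was 0.54 ± 0.08 (limma adjusted p = 0.00367), and the exact two-sided permutation p was 0.0286, the smallest that 4 against 4 libraries allow.

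The 3 Wnt ligands were higher with DSS in cesarean-born mice. Wnt5a, a ligand of non-canonical Wnt signalling made by mesenchymal cells at wounds, had 6.82, 7.61, 7.49 and 7.09 FPKM in DSS_CS colons against 2.79, 2.28, 1.72 and 1.32 FPKM in CON_CS colons. It had 8.95, 4.01, 6.08 and 4.06 FPKM in DSS_VD colons against 1.33, 1.70, 1.42 and 1.55 FPKM in CON_VD colons. The groups were apart in both birth modes, and the log2 fold changes were 1.47 ± 0.15 (limma adjusted p = 3.44e-05) for DSS_CS over CON_CS and 1.38 ± 0.21 (0.000834) for DSS_VD over CON_VD.

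Wnt4 had 7.40, 6.69, 8.32 and 8.46 FPKM in DSS_CS colons against 2.0, 1.5, 1.15 and 1.16 FPKM in CON_CS colons. In DSS_VD colons it had 7.27, 3.00, 6.09 and 5.61 FPKM, against 2.25, 1.74, 1.47 and 1.81 FPKM in CON_VD colons. Both pairs of ranges were apart, with log2 fold changes of 1.84 ± 0.13 (limma adjusted p = 4.49e-06) for DSS_CS over CON_CS and 1.16 ± 0.21 (0.00210) for DSS_VD over CON_VD. Wnt2b, a canonical Wnt ligand of the crypt mesenchyme, had 2.24, 3.06, 5.56 and 4.52 FPKM in DSS_CS colons against 1.12, 1.44, 1.58 and 1.04 FPKM in CON_CS colons, a log2 fold change of 1.03 ± 0.21 (limma adjusted p = 0.00249). In DSS_VD colons Wnt2b had 3.57, 0.57, 3.52 and 4.88 FPKM, against 0.73, 1.19, 0.93 and 1.92 FPKM in CON_VD colons. The low library is DSS_VD replicate 2, and the log2 fold change of 0.79 ± 0.38 did not pass the test (limma adjusted p = 0.127); without that library limma's adjusted p was 0.00180.

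The 3 BMP ligands did not move together. Bmp4, a mesenchymal BMP ligand, had 32.1, 62.4, 41.0 and 36.0 FPKM in DSS_CS colons against 9.52, 8.52, 8.74 and 7.55 FPKM in CON_CS colons. It had 28.9, 10.3, 19.6 and 16 FPKM in DSS_VD colons against 6.23, 6.87, 4.63 and 5.73 FPKM in CON_VD colons. Both pairs of ranges were apart, with log2 fold changes of 2.15 ± 0.19 (limma adjusted p = 1.64e-05) for DSS_CS over CON_CS and 1.44 ± 0.26 (0.00220) for DSS_VD over CON_VD.

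Bmp7, a BMP ligand that forms heterodimers with other BMPs, had 7.33, 13.7, 16.4 and 11.2 FPKM in DSS_CS colons against 1.24, 1.26, 1.01 and 0.95 FPKM in CON_CS colons, a ratio of means of 10.9. In DSS_VD colons it had 4.52, 3.55, 5.28 and 4.60 FPKM against 0.83, 1.22, 1.09 and 1.26 FPKM in CON_VD colons, a ratio of means of 4.07. Both pairs of ranges were apart, with log2 fold changes of 2.59 ± 0.21 (limma adjusted p = 9.24e-06) for DSS_CS over CON_CS and 1.38 ± 0.13 (8.25e-05) for DSS_VD over CON_VD.

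Bmp2 ran the other way. It had 11.7, 17.0, 16.3 and 18.5 FPKM in DSS_CS colons, every value under the lowest of the CON_CS colons at 19.0 FPKM, as for 24.1% of genes. It had 27.5, 17.1, 10.7 and 13 FPKM in DSS_VD colons, a range that overlapped the 16.3 to 23.4 FPKM of CON_VD colons. The log2 fold change was -0.60 ± 0.21 for DSS_CS over CON_CS (limma adjusted p = 0.0356) and -0.35 ± 0.26 for DSS_VD over CON_VD (0.306). The DSS_CS over CON_CS call was lost in 8 of 16 alternative fits, with adjusted p-values up to 0.0856, among them the fits without CON_CS replicate 3 (0.0703), CON_CS replicate 4 (0.0771), DSS_CS replicate 1 (0.0856), DSS_CS replicate 2 (0.0536) and DSS_CS replicate 3 (0.0653). The DSS_VD over CON_VD fit without DSS_VD replicate 1 called Bmp2 lower (0.0382). Per 1000 FPKM of the 10 epithelial markers, Bmp2 averaged 13.8 ± 6.80 in DSS_CS, 5.58 ± 2.86 in DSS_VD, 4.75 ± 1.47 in CON_CS and 4.33 ± 0.73 in CON_VD colons (SD, n = 4 each), with overlapping ranges between DSS and water in both birth modes.

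Grem1 had the largest fold change of the 10 genes in both birth groups. It had 376, 595, 357 and 288 FPKM in DSS_CS colons against 14.3, 15.1, 11.6 and 12.4 FPKM in CON_CS colons, a ratio of means of 30.3. It had 167, 148, 208 and 226 FPKM in DSS_VD colons against 14.8, 6.98, 10.3 and 9.71 FPKM in CON_VD colons, a ratio of means of 17.9. The lowest DSS library, at 148 FPKM, was far above the highest water library, at 15.1 FPKM. The log2 fold changes were 4.77 ± 0.21 (limma adjusted p = 5.26e-07) for DSS_CS over CON_CS and 4.06 ± 0.22 (7.16e-06) for DSS_VD over CON_VD.

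Foxl1 did not pass the test for a difference with DSS where it was tested. It had 0.96, 2.69, 3.49 and 1.87 FPKM in DSS_CS colons against 1.65, 0.97, 1.26 and 1.10 FPKM in CON_CS colons, and 1.12, 0.46, 0.81 and 0.61 FPKM in DSS_VD colons against 0.96, 1.0, 1.05 and 0.82 FPKM in CON_VD colons. Both pairs of ranges overlapped. The log2 fold change for DSS_CS over CON_CS was 0.48 ± 0.24 (limma adjusted p = 0.112), and without DSS_CS replicate 1, the lowest DSS_CS library, it was called higher (adjusted p = 0.00862). Foxl1 was below the filter for DSS_VD over CON_VD, where limma without a filter gave -0.17 ± 0.13 (adjusted p = 0.436).

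**Figure D2:**
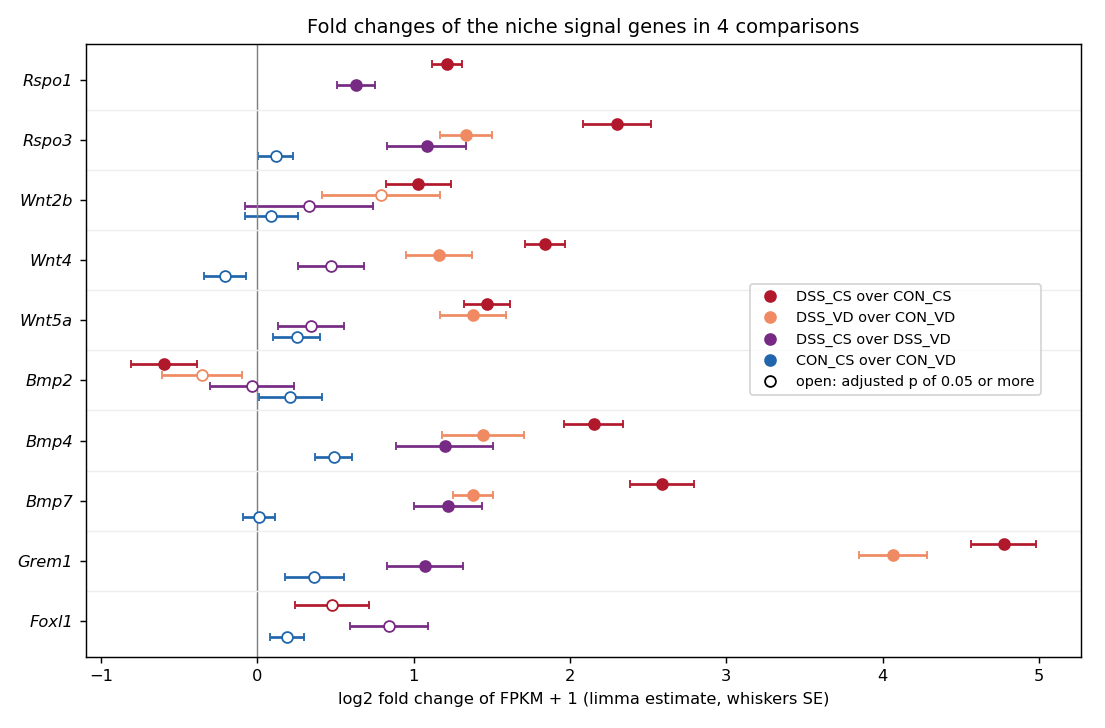
Limma log2 fold changes of FPKM + 1 (horizontal axis; whiskers are SE) of the 10 genes (rows) in 4 comparisons with 4 libraries a group. Filled points have an adjusted p under 0.05 and open points do not, and genes under the filter on low values have no point. Grem1 has the largest values, 4.77 and 4.06 with DSS, and no point of CON_CS over CON_VD is filled.

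The mixture of BMP ligand transcripts and of their antagonist shifted with DSS. Bmp2 made up 22.9 ± 4.10% of the summed FPKM of Bmp2, Bmp4 and Bmp7 in DSS_CS colons and 42.3 ± 10.6% in DSS_VD colons, against 71.1 ± 6.64% in CON_CS and 74.8 ± 4.57% in CON_VD colons (SD, n = 4 each). Bmp4 made up 60.0%, 45.8%, 25.5% and 21.1%, and Bmp7 17.1%, 11.9%, 3.36% and 4.03%, in DSS_CS, DSS_VD, CON_CS and CON_VD colons. For each of the 3 shares the DSS and water ranges were apart in both birth modes. The summed FPKM of the 3 ligands averaged 70.9 in DSS_CS, 40.2 in DSS_VD, 34.7 in CON_CS and 28.0 in CON_VD colons. Grem1 divided by that sum was 4.38 to 7.34 in DSS_CS and 2.74 to 6.72 in DSS_VD colons, against 0.25 to 0.53 in CON_CS and 0.24 to 0.49 in CON_VD colons. Grem1 transcripts thus exceeded the 3 ligands in every DSS library and were fewer per length in every water library. The ratio between CS and VD overlapped both under DSS and on water.

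**Figure D3:**
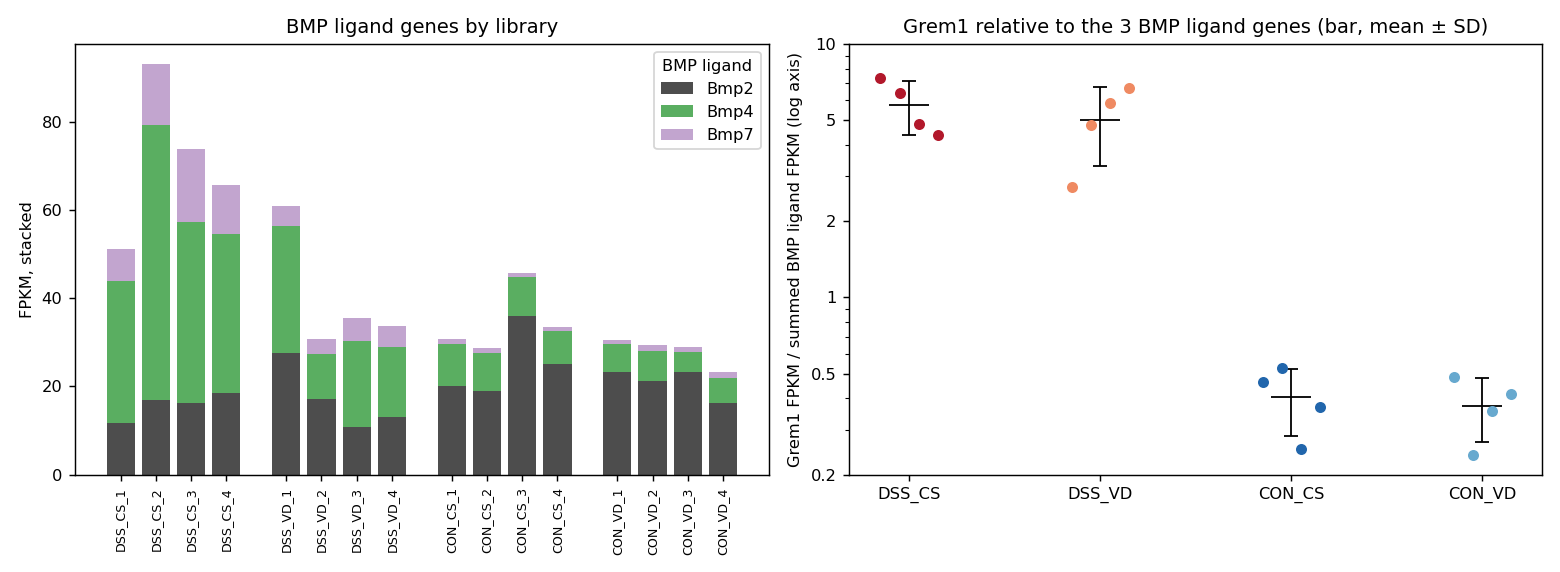
Left, stacked FPKM of Bmp2, Bmp4 and Bmp7 in each of the 16 colon libraries. Right, Grem1 FPKM divided by the summed FPKM of the 3 ligands on a log axis, with points for libraries and bars for the mean ± SD (n = 4). Bmp2 is the largest share in all 8 water libraries, and the ratio is above 1 in all 8 DSS libraries, from 2.74 to 7.34, and below 1 on water.

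Fibroblast markers moved with these genes, so each gene was also divided by their sum. Of the 12 fibroblast markers, 12 were called higher for DSS_CS over CON_CS and 11 for DSS_VD over CON_VD, with median log2 fold changes of 2.03 and 1.64. Per 1000 FPKM of the fibroblast markers, Grem1 averaged 243 ± 81.0 in DSS_CS and 221 ± 45.1 in DSS_VD colons, against 42.8 ± 4.43 in CON_CS and 38.5 ± 10.6 in CON_VD colons (SD, n = 4 each). These ranges were apart between DSS and water in both birth modes, as they were for 4.65% of genes higher in DSS_CS than in CON_CS and for 3.7% higher in DSS_VD than in CON_VD. Bmp7 averaged 7.13 ± 1.69 in DSS_CS against 3.57 ± 0.40 in CON_CS colons, with ranges apart, and 5.32 ± 1.11 in DSS_VD against 4.12 ± 0.89 in CON_VD colons, with ranges that overlapped. Rspo3 averaged 10.0 in DSS_CS, 8.24 in DSS_VD, 7.82 in CON_CS and 8.07 in CON_VD colons, Bmp4 averaged 25.5, 21.3, 27.5 and 21.9 in the same groups, and Wnt4 4.63, 6.23, 4.64 and 6.76. For Rspo3, Bmp4, Wnt4 and Wnt5a the DSS and water ranges overlapped in both birth modes. Wnt2b per 1000 FPKM of fibroblast markers was 2.25 ± 0.68 in DSS_CS and 4.14 ± 0.68 in CON_CS colons, lower with ranges apart, as for 84.9% of genes. In DSS_VD and CON_VD colons the ranges of Wnt2b overlapped, at 1.10 to 4.49 and 2.60 to 7.30.

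Foxl1 and Bmp2 were lower with DSS relative to the fibroblast markers. Foxl1 per 1000 FPKM of fibroblast markers averaged 1.31 ± 0.55 in DSS_CS and 0.87 ± 0.26 in DSS_VD colons, against 4.0 ± 0.95 in CON_CS and 3.56 ± 0.36 in CON_VD colons. Bmp2 averaged 9.40 ± 0.74 in DSS_CS and 21.3 ± 11.4 in DSS_VD colons, against 80.5 ± 25.2 in CON_CS and 78.0 ± 10.9 in CON_VD colons. Both genes were lower with ranges apart in both birth modes, as were 84.9% of all genes for DSS_CS over CON_CS and 78.1% for DSS_VD over CON_VD. Divided by Pdgfra alone, the receptor gene that marks fibroblasts and telocytes, Grem1 was 13.5 ± 4.77 in DSS_CS and 10.0 ± 2.76 in DSS_VD colons, against 2.14 ± 0.13 in CON_CS and 2.19 ± 0.70 in CON_VD colons, again with ranges apart, as for 5.29% of genes higher in DSS_CS than in CON_CS and 2.43% higher in DSS_VD than in CON_VD.

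**Figure D4:**
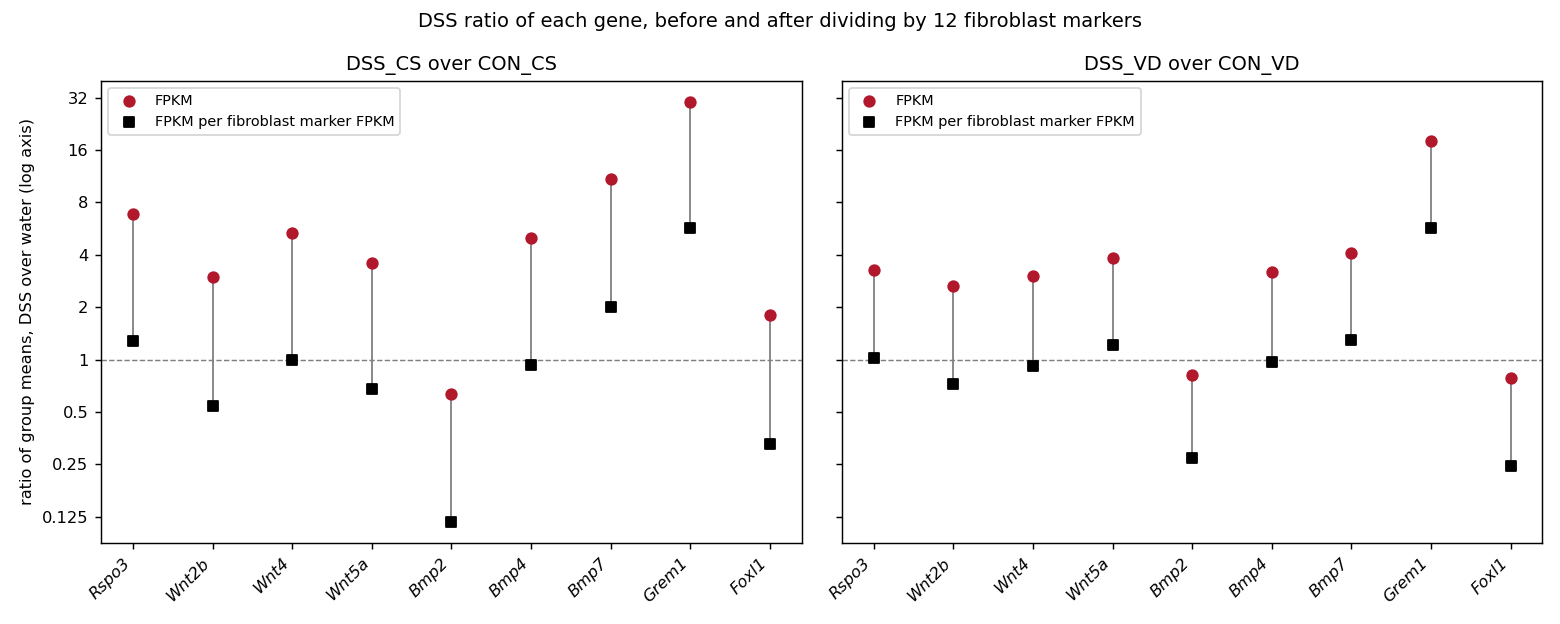
Ratio of group means of DSS over water (vertical log axis) for 9 of the genes, before (circles) and after (squares) each library's FPKM was divided by its summed FPKM of 12 fibroblast markers; left DSS_CS over CON_CS, right DSS_VD over CON_VD, and the dashed line is a ratio of 1. Rspo1, listed at 0 in 1 CON_CS library, is left out. Grem1 is the highest square in both panels. The squares of Bmp2 and Foxl1 lie furthest under the line in both. Those of Wnt2b (0.542 left, 0.726 right), Bmp4 (0.926 and 0.971) and Wnt4 (0.998 and 0.921) are also under it in both.

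The second comparison asks whether birth mode went with a difference under DSS. In DSS_CS colons 5 of the 10 genes were called higher than in DSS_VD colons, and none lower, while 13.4% of 14313 genes were called, 7.89% higher and 5.54% lower. Rspo1 passed the filter only through DSS_CS, which leaves 4 of the other 9 genes called. The 5 were Rspo1, Rspo3, Bmp4, Bmp7 and Grem1. Leaving out Rspo1, the 4 called were also those whose DSS_CS values were all above their DSS_VD values. That held for 15.3% of genes tested. The median log2 fold change was 0.74 over the 10 genes and 0.06 over all genes. With scaling by medians of ratios the split over all genes was 878 higher and 832 lower in place of 1130 and 793, and the count of 5 did not change.

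Bmp7 had a log2 fold change of 1.22 ± 0.22 (limma adjusted p = 0.0313), with means of 12.2 ± 3.85 FPKM in DSS_CS and 4.49 ± 0.71 FPKM in DSS_VD colons (SD, n = 4 each). Bmp4 averaged 42.9 ± 13.5 FPKM in DSS_CS and 18.7 ± 7.81 FPKM in DSS_VD colons, a log2 fold change of 1.20 ± 0.31 (limma adjusted p = 0.0414). Rspo3 averaged 16.6 ± 5.94 FPKM in DSS_CS and 7.10 ± 1.65 FPKM in DSS_VD colons, a log2 fold change of 1.08 ± 0.25 (0.0353). The lowest DSS_CS values of Bmp7, Bmp4 and Rspo3 were 7.33, 32.1 and 10.2 FPKM, and the highest DSS_VD values were 5.28, 28.9 and 8.49 FPKM. Grem1 averaged 404 ± 133 FPKM in DSS_CS and 187 ± 36.1 FPKM in DSS_VD colons, a log2 fold change of 1.07 ± 0.24 (limma adjusted p = 0.0339). Rspo1, which passed the filter only through DSS_CS, averaged 1.47 ± 0.24 FPKM in DSS_CS and 0.595 ± 0.185 FPKM in DSS_VD colons, a log2 fold change of 0.63 ± 0.12 (0.0313).

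The other 5 genes did not pass the test between DSS_CS and DSS_VD, and their ranges overlapped. Foxl1 had a log2 fold change of 0.84 ± 0.25 (limma adjusted p = 0.0562), with means of 2.25 FPKM in DSS_CS and 0.751 FPKM in DSS_VD colons. The 3 Wnt ligands had log2 fold changes of 0.47 ± 0.21 for Wnt4 (limma adjusted p = 0.161), 0.34 ± 0.21 for Wnt5a (0.298) and 0.33 ± 0.41 for Wnt2b (0.623). Bmp2 had -0.03 ± 0.27 (limma adjusted p = 0.953). Its share of the 3 ligands was 18.3 to 28.2% in DSS_CS and 30.1 to 55.3% in DSS_VD colons, with ranges apart. The sum under that share holds Bmp4 and Bmp7, both called higher in DSS_CS, so the share is no separate result on Bmp2.

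These 5 calls depended on the libraries and settings used. Of the 10 genes, 0 were called without DSS_VD replicate 1, without DSS_VD replicate 2, without DSS_CS replicate 2 or without DSS_CS replicate 3, and the count was 2 without DSS_VD replicate 4, 3 without DSS_CS replicate 4, 4 without DSS_VD replicate 3 and 5 without DSS_CS replicate 1. It was 0 with no filter on low values, 0 with the replicate block and 0 without the DSS_CS libraries that held prostate RNA, an alternative chosen after seeing the data. The count at an unadjusted limma p under 0.05 was 6 in the fit on all 8 libraries, Rspo1 among them. Of all 14313 genes tested, 4698 reached that level. These 5 genes were higher in DSS_CS in every alternative in which they passed the filter. Over those alternatives the log2 fold change was 1.02 to 1.42 for Bmp7, 0.96 to 1.43 for Bmp4, 0.88 to 1.40 for Rspo3 and 0.87 to 1.35 for Grem1. With 1 variance estimated over all 16 libraries, 6 of the 10 were called, the added gene being Foxl1 (limma adjusted p = 0.00686), which was also called without DSS_CS replicate 1 (0.0178).

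Fibroblast markers differed between the same groups, with 7 of 12 called higher and none lower in DSS_CS, a median log2 fold change of 0.86, and 6 of 10 epithelial markers were called lower, with a median of -1.41. Divided by the fibroblast markers, none of the 10 genes was higher in DSS_CS than in DSS_VD colons with ranges apart, and 0.217% of genes were. Rspo3 was then 5.63 to 14.1 in DSS_CS and 7.04 to 9.58 in DSS_VD colons per 1000 FPKM of markers, and Grem1 159 to 341 and 177 to 284 in DSS_CS and DSS_VD colons. Bmp2 was lower per fibroblast marker in DSS_CS, at 8.56 to 10.2 against 11.0 to 32.8 in DSS_VD colons, as were 65.6% of genes. Divided by Pdgfra alone, Bmp4 was 1.18 to 2.11 in DSS_CS and 0.75 to 1.09 in DSS_VD colons, ranges that were apart as for 0.803% of genes. The ranges of all the others of the 10 genes overlapped on that ratio. The prostate marker Pbsn was at 128 and 1355 FPKM in DSS_CS replicates 3 and 4. Bmp7 had 16.4 and 11.2 FPKM in these 2 colons, against 7.33 and 13.7 FPKM in DSS_CS replicates 1 and 2. Grem1 had 357 and 288 FPKM in the same 2 colons, against 376 and 595 FPKM in DSS_CS replicates 1 and 2. Without those libraries the log2 fold changes were 1.40 for Rspo3, 1.31 for Bmp4, 1.02 for Bmp7 and 1.35 for Grem1, with limma adjusted p-values of 0.0736 to 0.153, and Rspo1 was below the filter.

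The third comparison sets CON_CS against CON_VD colons. None of the 9 genes tested was called by limma, and 0.407% of 13275 genes were. At an unadjusted p under 0.05 there was 1 of the 9 genes and 2598 of all genes. Bmp4 was that gene, with 9.52, 8.52, 8.74 and 7.55 FPKM in CON_CS colons against 6.23, 6.87, 4.63 and 5.73 FPKM in CON_VD colons. The groups were apart, as for 6.31% of genes higher in CON_CS, with a ratio of means of 1.46, a log2 fold change of 0.49 ± 0.12 (limma adjusted p = 0.103) and an exact two-sided permutation p of 0.0286. The adjusted p of Bmp4 was between 0.0903 and 0.326 over 16 alternatives. The ranges of the other genes overlapped between CON_CS and CON_VD, and the log2 fold changes ran from -0.21 ± 0.13 for Wnt4 to 0.36 ± 0.19 for Grem1. The median over the 9 genes was 0.19, against 0.03 over all genes. All 12 fibroblast markers had a positive log2 fold change without a call, with a median of 0.23.

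The interaction asks whether the DSS response itself differed between birth modes. It was called for 3 of the 10 genes, Bmp7, Rspo1 and Rspo3, all with a larger response in cesarean-born mice, while 13.2% of 15233 genes were called and 6.68% in that direction. The difference of log2 fold changes (DSS_CS over CON_CS minus DSS_VD over CON_VD) was 1.21 ± 0.25 for Bmp7 (limma adjusted p = 0.0119), 0.97 ± 0.29 for Rspo3 (0.0406) and 0.67 ± 0.14 for Rspo1 (0.0124), which reached 1 FPKM only in DSS_CS. The other genes did not pass: Wnt4 had 0.68 ± 0.26 (limma adjusted p = 0.0938), Foxl1 0.65 (0.134), Grem1 0.71 (0.144) and Bmp4 0.71 (0.182). The Bmp7 call was kept in all 23 alternatives, with adjusted p-values up to 0.0495. The Rspo3 call was lost in 13 of 23, with adjusted p-values up to 0.0903. Rspo1 passed the filter only through DSS_CS and was below it whenever a DSS_CS library was left out, so nothing is read from its call, and 2 of the other 9 genes remain. The count of the 10 genes called was 1 without DSS_CS replicate 2 and 1 without DSS_CS replicate 3. Cell markers had interactions as well, with 2 of 12 fibroblast markers called (12 positive, median 0.68), 5 of 10 epithelial markers called in the negative direction (median -1.29) and 5 of 5 erythrocyte markers called in the positive direction (median 4.28), against a median of 0.04 over all genes. Their part in these calls was not tested.

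Other genes of the pathways were taken from lists of ligands, receptors, inhibitors and targets. Of 18 other Wnt and R-spondin ligands 17 were measured and few reached the filter. Wnt5b, a relative of Wnt5a, was higher with DSS, by 1.11 ± 0.18 on the log2 scale for DSS_CS over CON_CS (limma adjusted p = 0.000729) and 0.61 ± 0.15 for DSS_VD over CON_VD (0.0108). Porcn, the acyltransferase that all Wnt ligands need for secretion, was higher by 0.63 ± 0.09 (0.000229) and 0.53 ± 0.18 (0.0425) in the same comparisons, whereas its partner Wls was not called.

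Of the other BMP antagonists, 11 of 11 tested rose with DSS in cesarean-born mice and 5 of 9 in vaginally born mice, and none fell, against 34.4% and 24% of all genes higher. Of the 11, 6 (Nog, Chrd, Chrdl2, Fst, Bmper and Sostdc1) reached 1 FPKM in no CON_CS library and passed the filter only through DSS_CS, and 5 of the other 5 were called. Of the 9, Chrd, Chrdl2 and Sostdc1 passed only through DSS_VD, and 2 of the other 6 were called. Fibroblast markers rose beside them, 12 of 12 and 11 of 12 with medians of 2.03 and 1.64, and their part in these counts was not tested. For DSS_CS over CON_CS, Fstl1 rose by 2.51 ± 0.08 on the log2 scale (limma adjusted p = 1.79e-07), Chrd, the chordin gene, by 2.37 ± 0.18 (6.67e-06) and Bmper by 1.79 ± 0.12 (3.55e-06). For DSS_VD over CON_VD, Chrdl2 rose by 2.03 ± 0.19 (limma adjusted p = 8.01e-05), Sostdc1 by 1.70 ± 0.14 (4.70e-05) and Chrd by 1.45 ± 0.16 (0.000174). Between DSS_CS and DSS_VD colons 6 of 11 were higher, among them Chrdl2 by 1.56 ± 0.37 (0.0361), Fstl1 by 1.14 ± 0.22 (0.0313) and Bmper by 0.99 ± 0.14 (0.0299). The list's median log2 fold changes were 1.79 for DSS_CS over CON_CS, 1.21 for DSS_VD over CON_VD and 0.88 for DSS_CS over DSS_VD. The interaction was called for 5 of 11, all positive, against 13.2% of all genes called and 6.68% called positive. Of those called, Chrd, Chrdl2 and Bmper reached 1 FPKM in no CON_CS library. In alternative fits the DSS_CS over DSS_VD count was 0 with no filter, 0 with the replicate block, 0 without the libraries with prostate RNA and 0 to 4 with 1 library left out (0 without DSS_VD replicate 1, DSS_VD replicate 2, DSS_CS replicate 2 or DSS_CS replicate 3). The interaction count was 1 with no filter and 1 (without CON_VD replicate 3) to 7 with 1 library left out. For DSS_CS over DSS_VD 7 of 12 fibroblast markers and 7.89% of all genes were called higher, and the markers' part was not tested.

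The secreted Wnt inhibitors were also higher with DSS. All 7 tested in cesarean-born mice and all 6 tested in vaginally born mice were called, with medians of 1.69 and 1.25, against 34.4% and 24% of all genes called higher. Sfrp4 and Wif1 passed the filter only through DSS_CS in the first comparison and Sfrp5 only through DSS_VD in the second, and 5 of the other 5 were called in each. The fibroblast markers, with medians of 2.03 and 1.64, rose in the same libraries, and their part was not tested. Sfrp1, a secreted Frizzled-related protein that binds Wnt ligands, rose by 2.11 ± 0.16 on the log2 scale (limma adjusted p = 8.32e-06) for DSS_CS over CON_CS and by 1.78 ± 0.20 (0.000194) for DSS_VD over CON_VD, and Frzb by 2.45 ± 0.20 (1.18e-05) and 1.46 ± 0.15 (0.000134). Between DSS_CS and DSS_VD colons 3 of 7 were higher, which were Frzb by 1.0 ± 0.22 (limma adjusted p = 0.0330), Sfrp5 by 0.98 ± 0.21 (0.0331) and Sfrp4 by 1.41 ± 0.34 (0.0372), beside 7 of 12 fibroblast markers and 7.89% of all genes. That count was 0 with no filter, 0 with the replicate block, 0 without the libraries with prostate RNA and 0 to 3 with 1 library left out, with 0 without DSS_VD replicate 1, 2 or 4 or DSS_CS replicate 2 or 3.

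Target genes of both pathways included genes called higher and genes called lower with DSS. Of 7 BMP target genes, 4 fell and 1 rose for DSS_CS over CON_CS, and 5 fell for DSS_VD over CON_VD. Over all genes tested, 25.9% were called lower and 34.4% higher in the first comparison, and 17% and 24% in the second. Id1, a transcriptional inhibitor induced by BMP, fell by 1.94 on the log2 scale (SE 0.26, limma adjusted p = 0.000224) in DSS_CS over CON_CS and by 1.19 (SE 0.24, 0.00362) in DSS_VD over CON_VD. The inhibitory SMAD genes Smad6 and Smad7 fell by 0.83 (SE 0.18, limma adjusted p = 0.00312) and 0.75 (SE 0.11, 0.000408) in DSS_CS over CON_CS, and by 1.05 (SE 0.14, 0.000357) and 0.75 (SE 0.11, 0.000629) in DSS_VD over CON_VD. Between DSS_CS and DSS_VD colons none of the 7 was called by limma. There 5 of the log2 fold changes were positive and 2 negative, with a median of 0.27. Smad6 had 0.38 ± 0.11 (limma adjusted p = 0.0559) and Id1 had -1.08 ± 0.32 (0.0579). Of the Wnt target genes, 4 fell and 3 rose among 10 tested for DSS_CS over CON_CS. For DSS_VD over CON_VD 3 fell and 2 rose among 9, beside the same shares of all genes. Among those that rose, Cd44 had 2.09 ± 0.21 on the log2 scale (limma adjusted p = 3.47e-05) for DSS_CS over CON_CS. Tcf7 had 1.69 ± 0.20 (limma adjusted p = 0.000217) for DSS_VD over CON_VD. Axin2, a negative feedback gene of Wnt signalling, and Ascl2, a stem cell transcription factor, were among those that fell. Axin2 fell by 1.61 (SE 0.12, limma adjusted p = 8.28e-06) in DSS_CS over CON_CS and by 1.46 (SE 0.19, 0.000417) in DSS_VD over CON_VD. Epithelial markers were lower beside them, with 10 of 10 called lower for DSS_CS over CON_CS and 4 of 10 for DSS_VD over CON_VD. Leukocyte markers were higher, with 5 of 5 tested called for DSS_CS over CON_CS (median 3.36) and 6 of 6 for DSS_VD over CON_VD (median 2.49). The part of the leukocytes in the rise of Cd44 and Tcf7 was not tested. Per 1000 FPKM of epithelial markers, Id1 averaged 26.6 ± 5.37 in DSS_CS against 25.5 ± 4.63 in CON_CS colons and 23.9 ± 6.99 in DSS_VD against 34.2 ± 3.33 in CON_VD colons, with overlapping ranges in both birth modes. Axin2 averaged 0.979 ± 0.231 in DSS_CS against 1.11 ± 0.17 in CON_CS colons, with ranges that overlapped, and 0.367 ± 0.097 in DSS_VD against 1.03 ± 0.29 in CON_VD colons, with ranges apart as for 3.85% of genes lower in DSS_VD (SD, n = 4 each).

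**Figure D5:**
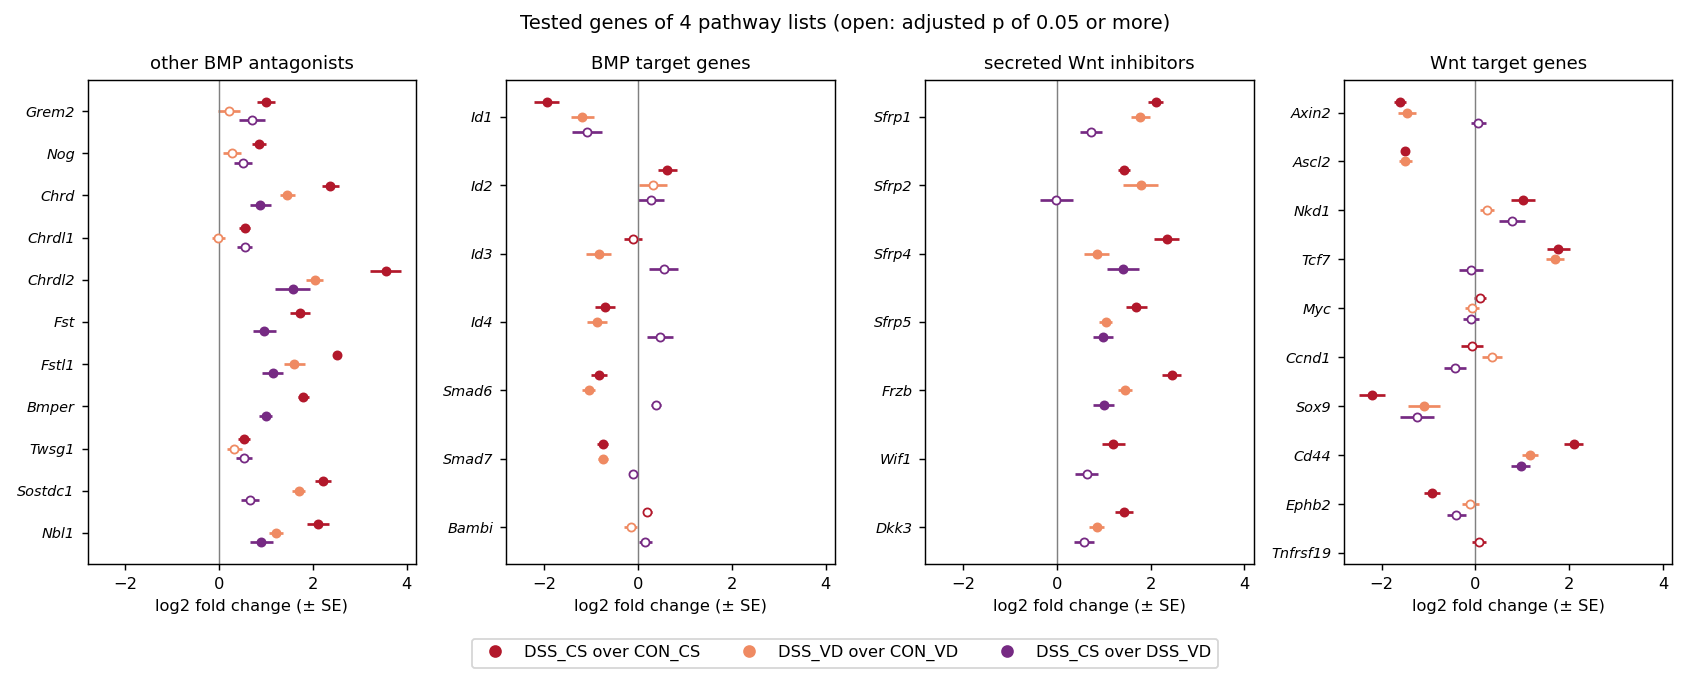
Limma log2 fold changes of FPKM + 1 (horizontal axes; whiskers are SE) of the tested genes in 4 pathway lists for DSS_CS over CON_CS, DSS_VD over CON_VD and DSS_CS over DSS_VD, with 4 libraries a group. Filled points have an adjusted p under 0.05. The BMP antagonists and secreted Wnt inhibitors lie mostly right of 0, up to 3.55 for Chrdl2 in DSS_CS over CON_CS. Of the 7 BMP targets, 5 lie left of 0 in DSS_CS over CON_CS and 6 in DSS_VD over CON_VD. In DSS_CS over DSS_VD, 5 of the 7 lie right of 0 and none is filled.

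Receptors and the hedgehog pathway were split. Of 15 tested Wnt and R-spondin receptors and their ubiquitin ligases, 5 rose and 5 fell for DSS_CS over CON_CS. For DSS_VD over CON_VD 3 rose and 5 fell. Over all genes tested, 34.4% rose and 25.9% fell in the first comparison, and 24% and 17% in the second. The Frizzled genes Fzd1 and Fzd4 rose by 2.08 ± 0.14 (limma adjusted p = 4.16e-06) and 1.33 ± 0.13 (3.32e-05) on the log2 scale for DSS_CS over CON_CS, and Lgr4, an R-spondin receptor, fell by 2.08 (SE 0.17, 9.78e-06). Lgr4 also had a negative interaction of -1.20 ± 0.29 (limma adjusted p = 0.0195), as did Rnf43, a ubiquitin ligase that R-spondins remove, at -0.78 ± 0.20 (0.0247). Ror2, of the same list, had a positive interaction of 1.07 ± 0.31 (0.0348). Of the 15 tested, these were the 1 called positive and the 2 called negative, beside 13.2% of all genes called in either direction. Of the hedgehog genes, Ihh, the epithelial hedgehog ligand, fell by 2.45 (SE 0.28, limma adjusted p = 7.37e-05) for DSS_CS over CON_CS and by 1.94 (SE 0.20, 0.000126) for DSS_VD over CON_VD. Foxf1, a mesenchymal forkhead gene, rose by 2.07 ± 0.20 (limma adjusted p = 3.13e-05) and 1.07 ± 0.14 (0.000354) in the same comparisons. Epithelial markers had median log2 fold changes of -1.93 for DSS_CS over CON_CS and -0.53 for DSS_VD over CON_VD, and an interaction median of -1.29. Fibroblast markers had medians of 2.03 and 1.64 with DSS. The part of these markers in the values was not tested.

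Among the libraries of a group, the 10 genes fell into loose pairs. With group means removed from log2(FPKM + 1), Pearson's r over the 16 libraries was 0.84 between Rspo3 and Grem1, 0.83 between Bmp7 and Foxl1, 0.73 between Wnt5a and Bmp4 and 0.69 between Wnt4 and Wnt5a, while Grem1 and Wnt5a had 0.01. These are descriptions over libraries that share the tissue mixture of their colons. Among 12303 genes the closest to Grem1 on that measure were Sostdc1 (r = 0.93), Ldhb (0.93) and Lims2 (0.91), and the closest to Rspo3 were Ssbp2 (0.95), Cdk10 (0.94) and Ptbp2 (0.93). Bmp7 was closest to Spred1 (0.94), to the BMP ligand gene Bmp5 (0.92) and to Akap2 (0.91), Bmp4 to Fam49a (0.92), Clec14a (0.91) and Patz1 (0.89), and Bmp2 to Dusp5 (0.85), Retreg1 (0.83) and Sept2 (0.82). Foxl1 was closest to the mast cell gene Tpsb2 (0.91), Vash1 (0.90) and Nrg1 (0.87), Wnt2b to Lamp2 (0.96), Txndc16 (0.94) and Nrp1 (0.94), Wnt4 to Pira2 (0.93), Pik3ap1 (0.91) and Itgal (0.91), and Wnt5a to Cbfa2t3 (0.91), Yod1 (0.84) and Sdc3 (0.84). Some of the 10 genes share exon bases with genes on the other strand, which cannot be told apart without strand. Gm48159 covers 13.1% of the Rspo3 exon bases and was listed at 0 in every library, Gm2670 covers 4.58% of Wnt5a and reached 1.02 FPKM, and Gm15217 covers 3.96% of Bmp4 and reached 0.719 FPKM.

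All 10 genes are protein-coding in GENCODE M21 on GRCm38. Rspo1 lies at chr4:124986430-125009099, Wnt4 at chr4:137277489-137299726, Rspo3 at chr10:29452416-29535867, Wnt2b at chr3:104945272-104961921, Wnt5a at chr14:28504750-28527448 and Bmp4 at chr14:46383520-46390669. Bmp2 lies at chr2:133552159-133562885, Bmp7 at chr2:172868012-172940321, Grem1 at chr2:113746164-113758646 and Foxl1 at chr8:121127940-121130644.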

How the data were processed

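The data are gene levels in FPKM, deposited by the authors in a single table with 39328 genes and 16 libraries. The submitters' processing notes name cutadapt, FastQC and GRCm38, and the labels' protocols name Trizol for RNA extraction. The aligner was, like the quantifier, the annotation and the strand, not given in the sources used here. Read depth is unknown: whole reads could not be recovered, since among 16959 genes under 0.3 FPKM at most 0.978% of the log2 ratios between 2 libraries, rounded to 0.01, shared 1 value. FPKM sums were 280135 to 343423 per library. An FPKM of 0 is given as listed at 0.

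Groups and replicate numbers came from the labels, which do not say whether libraries are separate mice or litters, and p-values therefore cover only the spread among these libraries. Symbols were matched to 39181 of the identifiers, positions came from GENCODE M21 and promoters from RefSeq on GRCm38.p6. On the log2(FPKM + 1) scale, limma 3.58.1 (R 4.3.3) was run with its trend option for genes with FPKM of at least 1 in at least 4 fitted libraries, two-sided, with Benjamini-Hochberg adjustment over all genes tested and a threshold of 0.05. Fold changes on this scale understate changes of low genes. A comparison of 2 groups used only their 8 libraries, and the interaction used all 16. Single genes were compared with exact permutation tests in scipy 1.17.1. Fits were first tested on simulated data in which known genes changed.

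The 10 genes and the pathway and marker lists were chosen with earlier results of these data known. Besides the 10 genes, up to 3 genes of smallest adjusted p were named from a list and comparison, or 2 where none passed. Only the values that bear on the 10 genes are printed, and marker lists are given by counts and summed FPKM. Genes of similar pattern are the 3 of highest Pearson r with group means removed. Alternatives were other pseudocounts (0.1 and 0.5), filters, median-of-ratios scaling, a replicate block, 1 fit on all libraries, each library left out and, chosen after seeing the data, the libraries with Pbsn above 10 FPKM left out. Wnt3a and Dkk4 were not analysed here. Figures were drawn with matplotlib 3.10.9.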

Additional observations from a re-analysis of the deposited data

Results flagged for a closer look

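In 40 groups of 4 values (the 10 genes in each group), 1 value lay far from the others of its group: Rspo3 at 2.02 FPKM in CON_CS replicate 1, against 2.53 to 2.61 FPKM in the other CON_CS colons. Chance gives about 1 such value in 20 groups. That library also held Pbsn at 185 FPKM, and the part of this in the value was not tested.

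The interaction of birth mode and DSS was called for 3 of the 10 genes, by limma with Benjamini-Hochberg adjustment. The difference of log2 fold changes, larger in cesarean-born mice, was 1.21 for Bmp7, 0.97 for Rspo3 and 0.67 for Rspo1. Of all genes 13.2% were called in that test, 6.68% in the same direction. Rspo1 passed the filter only through DSS_CS colons, so nothing is read from its call, which leaves Bmp7 and Rspo3. The Rspo3 call was lost in 13 of 23 alternatives, and 1 of the 10 genes was called without DSS_CS replicate 2 or without DSS_CS replicate 3.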

How the results depend on the processing

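For DSS_CS over DSS_VD, the count of the 10 genes called was 5, and it became 0 with no filter on low values, 0 with the replicate block, 0 without the libraries with prostate RNA and 0 to 5 when 1 library was left out; over all genes, 1923 calls became 3, 2, 6 and 0 to 2054 in the same alternatives and 3855 in 1 fit on all 16 libraries. For CON_CS over CON_VD, 54 calls over all genes became 3 with no filter, 7 with the replicate block, 15 without the library with prostate RNA and 0 to 275 with 1 library left out, and none of the 10 genes was called in any alternative. For DSS_CS over CON_CS, 8666 calls became 5217 without the libraries with prostate RNA, and 7 to 9 of the 10 genes were called. For the interaction, 2015 calls became 1042 with no filter, 637 without the libraries with prostate RNA and 1056 to 2515 with 1 library left out, and 1 to 3 of the 10 genes were called. For DSS_VD over CON_VD, 6 or 7 of the 10 genes were called in every alternative.

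Directions turned only for log2 fold changes that did not pass the test. With 1 library left out, Bmp2 in DSS_CS over DSS_VD was -0.212 to 0.216 (0.216 without DSS_VD replicate 1, 0.0982 without DSS_CS replicate 1), and Wnt2b was -0.0836 (without DSS_VD replicate 2) to 0.551, and -0.0343 without the libraries with prostate RNA. In CON_CS over CON_VD, Bmp7 was -0.0541 (without CON_VD replicate 1) to 0.0507, with -0.0174 without CON_CS replicate 1, -0.0211 without CON_CS replicate 2, -0.0217 with median-of-ratios scaling and -0.0174 without the library with prostate RNA, and Wnt2b was -0.0144 (without CON_VD replicate 1) to 0.239. In the interaction, Wnt5a was -0.0360 (without DSS_VD replicate 2) to 0.294, with -0.0301 without CON_CS replicate 4 and -0.0312 without DSS_VD replicate 4, Bmp2 was -0.424 to 0.00460 (without DSS_VD replicate 1), and Wnt2b was -0.175 (without DSS_VD replicate 2) to 0.460, and -0.161 without the libraries with prostate RNA. The cause was not tested.

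Replicate numbers are shared by the groups, and deviations of same-numbered libraries correlated at -0.278 to 0.128. These correlations cannot show whether same-numbered libraries share a litter, which the labels do not say. The replicate block left 9 of the 10 genes called for DSS_CS over CON_CS, 6 for DSS_VD over CON_VD and 2 for the interaction. With read depth unknown, no counting interval can be given for genes under 1 FPKM such as Rspo1 on water.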
